A study of Mus musculus with 9 samples.

Results

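The 10 genes described here present peptides on MHC class I: the chains H2-K1, H2-D1, H2-T23 and H2-Q7, the light chain B2m, the peptide transporter subunits Tap1 and Tap2, the loading factor Tapbp, and the immunoproteasome subunits Psmb8 and Psmb9. They were found by symbol among the 31053 genes of the count tables, each once, and were read in 10x Genomics 3′ single-cell RNA-seq libraries of brain cells sorted for CD11b, a surface protein of myeloid cells. All mice were female C57BL/6J mice of 5 months, with the cerebellum removed from each brain. The 3 control libraries (Ctrl) held 1 untreated brain each. The 3 D0 libraries held 2 pooled brains each, taken after 14 days on a diet with 1200 mg/kg of PLX5622, an inhibitor of the receptor CSF1R on which most microglia depend. The 3 D2 libraries also held 2 pooled brains each and came from mice that had 2 days of control diet after the same 14 days of PLX5622. D0 cells are therefore those that remained under the inhibitor, and D2 cells are those present at the start of repopulation. The questions asked of the genes were how their levels differed between the cell types in the sort, and whether they differed between Ctrl, D0 and D2 microglia.

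MHC class I displays peptides from proteins made inside a cell to CD8+ T cells and natural killer cells. The immunoproteasome, in which Psmb8 and Psmb9 replace subunits of the standard proteasome, cuts proteins into peptides. The transporter of Tap1 and Tap2 carries the peptides into the endoplasmic reticulum, where Tapbp (tapasin) helps to load them onto a chain paired with B2m. H2-K1 and H2-D1 are classical chains, and H2-Q7 and H2-T23 (Qa-2 and Qa-1) are non-classical ones. The genes respond to interferons and to the transactivator Nlrc5, and resting microglia are known for low surface class I.

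B2m lies on chromosome 2 (GRCm38, 122147686 to 122153083, plus strand) and the other 9 genes lie on chromosome 17, in and beside the major histocompatibility complex. H2-K1 spans 33996017 to 34000347 on the minus strand, H2-D1 35262730 to 35267499 on the plus strand, H2-Q7 35439155 to 35443773 on the plus strand and H2-T23 36029773 to 36032855 on the minus strand. Tap1, Tap2, Psmb8 and Psmb9 lie together between 34181987 and 34216321, and the RefSeq starts of Tap1 and Psmb9, on opposite strands, are 226 bases apart. Tapbp spans 33915899 to 33929292. GENCODE lists all 10 as protein-coding. The chain genes are close paralogues, so reads shared between H2-K1, H2-D1 and the H2-Q genes may have been assigned to the wrong copy or lost, and the split between them is uncertain.

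RefSeq promoters of GRCm38.p6 were at hand for 9 of the 10 members (not Tap2). The RefSeq starts differ in part from those of GENCODE. The windows of H2-D1, Tapbp, Psmb8 and Psmb9 lie wholly within the GENCODE spans of these genes, and that of H2-T23 lies partly within. For these genes a window is upstream of the RefSeq start only. The 250 bases before the start are shown for H2-K1 (chr17:34000348-34000597, minus strand), H2-Q7 (chr17:35438905-35439154, plus strand) and B2m (chr2:122147437-122147686, plus strand) because these genes, with H2-D1, carried the differences between the groups of microglia. The other windows are not printed. Capitals mark matches on either strand to an interferon regulatory factor motif (AANNGAAA), an NF-kB motif (GGGNNTTCC), a Y box (CCAAT) and an X2 box (TGACG). None of the matches overlapped another match of the same gene.

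H2-K1: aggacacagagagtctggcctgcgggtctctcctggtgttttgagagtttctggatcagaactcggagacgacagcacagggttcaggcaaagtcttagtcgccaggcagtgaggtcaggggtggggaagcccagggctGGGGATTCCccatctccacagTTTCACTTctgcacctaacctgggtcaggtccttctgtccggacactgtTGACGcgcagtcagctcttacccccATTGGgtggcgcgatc
H2-Q7: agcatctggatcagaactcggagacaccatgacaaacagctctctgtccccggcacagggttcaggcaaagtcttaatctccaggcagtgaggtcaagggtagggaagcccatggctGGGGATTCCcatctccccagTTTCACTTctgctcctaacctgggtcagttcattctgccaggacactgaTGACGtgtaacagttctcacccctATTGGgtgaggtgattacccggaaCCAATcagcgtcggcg
B2m: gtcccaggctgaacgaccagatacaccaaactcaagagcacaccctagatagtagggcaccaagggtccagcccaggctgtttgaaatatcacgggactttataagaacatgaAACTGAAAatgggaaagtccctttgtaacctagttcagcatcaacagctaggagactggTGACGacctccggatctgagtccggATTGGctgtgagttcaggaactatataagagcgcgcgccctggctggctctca

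The NF-kB and interferon regulatory factor matches stood side by side in H2-K1, H2-D1 and H2-Q7. The stretch from the first to the second is given for H2-K1 (chr17:34000430-34000458, minus strand), H2-D1 (chr17:35262923-35262951, plus strand) and H2-Q7 (chr17:35439022-35439049, plus strand). The H2-K1 and H2-D1 stretches shared 28 of 29 bases, and the 2 motifs were 12 bases apart in both and 11 apart in H2-Q7.

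H2-K1 stretch: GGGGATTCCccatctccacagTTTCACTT
H2-D1 stretch: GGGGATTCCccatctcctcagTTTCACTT
H2-Q7 stretch: GGGGATTCCcatctccccagTTTCACTT

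In the 250 bases, 5 of the 9 promoters held the interferon regulatory factor motif (H2-K1, H2-D1, H2-T23, H2-Q7 and B2m), which 21.6% of 27025 promoters hold. The NF-kB motif was found in 3 of 9 (H2-K1, H2-D1 and H2-Q7) against 4.88% of all promoters, the Y box in 8 of 9 against 34.5%, and the X2 box in 6 of 9 against 17.9%. The Tap1 and Psmb9 windows share 225 bases, read from opposite strands. Their Y box and X2 box matches are the same sites, counted for both genes. The NF-kB matches of H2-K1, H2-D1 and H2-Q7, and the interferon regulatory factor matches beside them, lie in the closely alike stretches of these paralogues shown above. The 9 promoters are therefore not all separate. The Psmb8 window, which lies within the GENCODE span of the gene, held none of the 4 motifs. A match describes letters only and does not show that a factor binds there.

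The libraries held 20257894 to 61230741 UMIs and 30463 kept cells in all, of which 28655 were in the 8 libraries compared. Microglia-like cells, named by clusters that left the class I genes out, numbered 21977 (1550 to 3794 per library), and their 12 microglia markers, such as P2ry12 and Tmem119, reached a sum of 30163 to 36278 per 1000000 UMIs (CPM) over the Ctrl libraries, 21117 to 23508 over D0 and 17667 and 17998 over D2. D2-3 stood apart from the other libraries. Of its 769 microglia-like cells, 85.2% had UMIs of at least 2 of 8 mitotic genes, against 8.12% to 24.5% in the other D0 and D2 libraries and 0.231% to 0.338% in Ctrl. The study left this library out, and it was left out here unless stated, which leaves 2 D2 libraries. Of the kept cells, 196 shared a barcode with another library.

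In microglia, the class I chains H2-K1, H2-D1 and H2-Q7 and the light chain B2m were higher in D0 than in Ctrl, by 1.83 to 3.80-fold, and were higher in D2 than in Ctrl as well. The transporter subunit Tap1 and the immunoproteasome subunit Psmb8 rose less, by 1.5 and 1.36-fold in D0. H2-T23, Tap2, Tapbp and Psmb9 did not pass the test in either comparison. In total 6 of 10 members were called higher in D0 and 5 of 10 in D2, and none was called lower, at an adjusted p under 0.05 in edgeR's quasi-likelihood test on the UMIs summed per library. Of all 12414 genes tested, 12.5% were called higher and 7.61% lower in D0, and 10.6% were called higher and 7.49% lower in D2. The median log2 fold change of the members was 0.51 in D0 and 0.45 in D2, where that of all genes was -0.06 and -0.03.

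**Figure D1:**
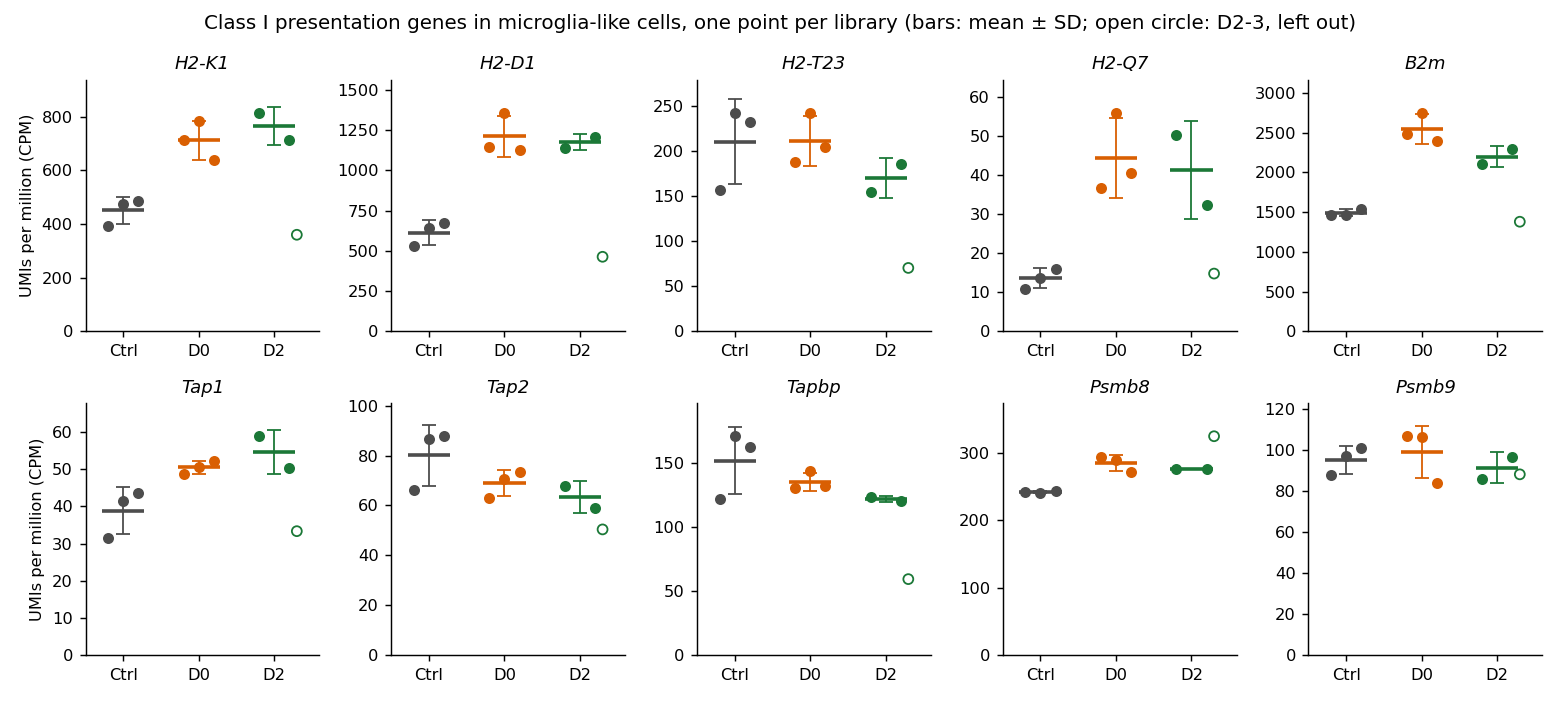
UMIs per 1000000 of each member in microglia-like cells of each library (points), with the mean and SD over the 3 Ctrl, 3 D0 and 2 D2 libraries compared; the open circle is D2-3, which was left out. H2-K1, H2-D1, H2-Q7, B2m, Tap1 and Psmb8 lay above the Ctrl libraries in all D0 and D2 libraries compared, and Tap2, Tapbp, H2-T23 and Psmb9 overlapped them. The share of all genes set apart in this way was not counted.

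Among the chains, H2-D1 read 527, 639 and 672 CPM in Ctrl-1, Ctrl-2 and Ctrl-3, 1148, 1359 and 1125 in the D0 libraries and 1138 and 1208 in the D2 libraries. No D0 or D2 library overlapped Ctrl. The log2 fold change was 1.19 (SE 0.15, adjusted p = 0.000621) in D0 and 1.04 (SE 0.17, adjusted p = 0.00231) in D2. H2-K1 read 393, 473 and 485 CPM in Ctrl, 714, 784 and 639 in D0 and 815 and 714 in D2. Its groups were likewise apart, with a log2 fold change of 0.87 in D0 (SE 0.14, adjusted p = 0.00293) and 0.87 in D2 (SE 0.16, adjusted p = 0.00478).

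H2-Q7, the chain of Qa-2, had the largest fold of the members in both comparisons. It read 10.9, 13.7 and 16.0 CPM in Ctrl, 36.6, 55.9 and 40.6 in D0 and 50.1 and 32.3 in D2, again with no overlap with Ctrl. The log2 fold change was 1.93 (SE 0.25, adjusted p = 0.000629) in D0 and 1.71 (SE 0.27, adjusted p = 0.00216) in D2. H2-T23, the chain of Qa-1, behaved otherwise: it read 157, 243 and 232 CPM in Ctrl, 188, 242 and 205 in D0 and 155 and 186 in D2. These values overlapped, and the log2 fold change was 0.21 in D0 (95% interval -0.25 to 0.68) and -0.20 in D2 (-0.72 to 0.32). The 4 chains summed to 1088, 1368 and 1406 CPM in Ctrl, 2086, 2441 and 2009 in D0 and 2158 and 2140 in D2.

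B2m, which pairs with every class I chain, read 1467, 1463 and 1540 CPM in Ctrl, 2483, 2754 and 2396 in D0 and 2106 and 2291 in D2. Both D2 libraries lay above all Ctrl and below all D0 libraries. Its log2 fold change was 0.98 (SE 0.11, adjusted p = 0.000350) in D0 and 0.67 (SE 0.13, adjusted p = 0.00545) in D2. Without D2-2, which leaves D2-1 alone on the assumption that it varies like the other groups, the D2 value was 0.58 (adjusted p = 0.0589).

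Of the genes that supply and load peptides, Tap1 read 31.5, 41.6 and 43.5 CPM in Ctrl, 48.7, 50.5 and 52.3 in D0 and 58.9 and 50.4 in D2. The D0 and D2 libraries lay above all Ctrl libraries and overlapped each other, and the log2 fold change against Ctrl was 0.58 in D0 (SE 0.16, adjusted p = 0.0285) and 0.60 in D2 (SE 0.17, adjusted p = 0.0404). The call held in 17 of 24 other settings in D0 and in 12 of 25 in D2. Without Ctrl-2, D0-2 or D0-3 the D0 value was 0.55 to 0.65 with an adjusted p of 0.0519 to 0.101. Its partner Tap2 read 66.0, 86.8 and 87.8 CPM in Ctrl, 63.2, 70.5 and 73.5 in D0 and 67.8 and 58.9 in D2, and its log2 fold change was -0.01 in D0 (95% interval -0.36 to 0.34) and -0.24 in D2 (-0.63 to 0.16). Tapbp read 122, 171 and 163 CPM in Ctrl, 131, 144 and 132 in D0 and 124 and 121 in D2. Its log2 fold change was 0.04 in D0 (-0.32 to 0.39) and -0.22 in D2 (-0.62 to 0.19). Both subunits of the transporter were thus measured, and Tap1 alone passed the test, but the difference between them was not tested.

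Of the immunoproteasome subunits, Psmb8 passed the test in D0. Psmb8 read 242, 240 and 243 CPM in Ctrl, 293, 289 and 272 in D0 and 275 in each D2 library, apart from Ctrl in every library. Its log2 fold change was 0.45 in D0 (SE 0.10, adjusted p = 0.0132) and 0.30 in D2 (SE 0.11, adjusted p = 0.0903), and without D0-2 the D0 adjusted p was 0.0666. Psmb9 read 87.7, 97.4 and 101 CPM in Ctrl, 107, 106 and 84.2 in D0 and 86.1 and 96.8 in D2, and its log2 fold change was 0.26 in D0 (95% interval -0.05 to 0.58) and 0.05 in D2 (-0.30 to 0.40).

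The fitted folds were larger than the ratios of these CPM values, because the TMM scaling of edgeR, which allows for a few abundant genes, differed between groups by -0.21 (D0 minus Ctrl) and -0.11 (D2 minus Ctrl) on the log2 scale. Scaled by total UMIs alone, the median of all genes was -0.27 in D0 and -0.14 in D2. H2-K1, H2-D1, H2-Q7 and B2m were still called higher in both comparisons (log2 fold change 0.66, 0.98, 1.72 and 0.77 in D0 and 0.76, 0.94, 1.61 and 0.56 in D2), and Tap1 (0.38 in D0, adjusted p = 0.0676, and 0.49 in D2, adjusted p = 0.0524) and Psmb8 (0.24 in D0, adjusted p = 0.0742) were not. That scaling called 1153 genes higher and 2721 lower in D0, against 1553 and 945 with TMM, and 1102 and 1518 in D2, against 1310 and 930.

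Between D2 and D0, edgeR called none of the 10 members and none of all genes (0% of 12414), with 1 member, B2m, and 819 genes at an unadjusted p under 0.05. DESeq2 called 9 genes higher and 14 lower, and none of the members. The B2m difference was -0.31 (D2 minus D0, log2 scale, 95% interval -0.60 to -0.02, adjusted p = 0.724). The interval for H2-K1 was -0.36 to 0.36 and that for H2-D1 was -0.52 to 0.23, so changes of these sizes between D0 and D2 were not detectable with 2 D2 libraries.

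The left-out library D2-3 did not share the D2 pattern. Its microglia-like cells read 360 CPM for H2-K1, 463 for H2-D1, 14.7 for H2-Q7 and 1379 for B2m, at or below the Ctrl range, and 6 of 10 members were below every Ctrl library. The share of all genes below every Ctrl library was not counted. The 12 microglia markers had a low sum there too, of 9481 CPM against 17667 or more in the libraries compared, so low values were not confined to class I genes. Not each marker was low: Tmem119 (511 CPM) and Olfml3 (1276 CPM) lay above D2-1 and D2-2. Why values were low in D2-3 was not tested. With D2-3 included, 1 member, H2-Q7, was called higher in D2 (log2 fold change 1.45), and H2-K1 (0.69, adjusted p = 0.104), H2-D1 (0.81, adjusted p = 0.102) and B2m (0.60, adjusted p = 0.0709) were not. In the same fit, whose spread also rose for the other groups, 2 members, H2-Q7 and B2m, were called higher in D0, H2-K1 had an adjusted p of 0.0960 and H2-D1 one of 0.0554. Of all 12210 genes, that fit called 427 higher in D0 and 912 in D2. The main fit called 1553 and 1310 of 12414. The D2 result therefore rests on D2-1 and D2-2.

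At the level of single cells, each microglia-like cell was thinned to 2000 UMIs, so that cells of unequal depth could be compared (30 to 266 shallower cells left out per library). The median cell then held 2 UMIs of the 4 chains in each Ctrl library, 4, 4 and 3 in the D0 libraries and 4 in each D2 library. The Ctrl means were 2.15 to 2.79, the D0 means 3.92 to 4.92 and the D2 means 4.31 and 4.40. The 10th percentile was 0 in each Ctrl library and 1 in each D0 and D2 library compared, and the 90th percentile was 5, 5 and 6 in Ctrl against 8, 9 and 8 in D0, so that the low and the high ends of the distribution were both higher. B2m had a median of 3 UMIs in each Ctrl library, 5, 5 and 4 in D0 and 4 in each D2 library.

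Markers of other blood and brain cells were low in the microglia-like sums, and the summed monocyte and dendritic cell lists were higher in D0 and D2, though not each of their genes. The 10 monocyte markers gave 9.01 to 9.66 CPM over the Ctrl libraries, 17.9 to 26.3 over D0 and 26.3 and 36.7 over D2, where monocyte-like cells themselves held 5297 to 9512. The 11 dendritic cell markers summed to 51.3 to 54.6, 68.9 to 84.5 and 88.7 to 89.7 CPM, against 1500 to 2341 in dendritic cell-like cells. A few genes carried both sums: Itgax (4.47 to 5.15 CPM over Ctrl, 9.29 to 19.6 over D0) and Batf3 for dendritic cells, and Ms4a4c (1.68 to 2.37 and 6.11 to 9.20 CPM) and Plac8 for monocytes. The chemokine receptor gene Ccr2, a defining marker of monocytes, was instead lower, at 3.86 to 5.17 CPM over Ctrl, 2.05 to 2.76 over D0 and 2.39 and 3.44 over D2. The integrin gene Itgae of the dendritic cell list was lower too, at 1.97 to 2.95 CPM over Ctrl and at most 0.762 over D0 and D2. The 11 neutrophil markers summed to 209 to 287, 192 to 403 and 281 to 440 CPM, against at least 115460 in neutrophil-like cells. The 9 endothelial markers were between 29.3 and 59.3 CPM in every library, and at most 2 of the 10 monocyte markers were at 0 in any library. The part of these cells in the result was not tested. Mitotic cells, given above, and cells with UMIs of at least 3 of 8 interferon-response genes (1.34% to 1.96% in Ctrl, 2.90% to 6.32% in D0, 6.06% and 6.15% in D2) were more frequent in D0 and D2. Without the mitotic cells, the log2 fold change in D0 was 0.90 for H2-K1, 1.26 for H2-D1, 1.78 for H2-Q7 and 1.03 for B2m, all still called, and 0.45 for Tap1, which was not (adjusted p = 0.108). Without the interferon-positive cells, all 6 members were still called in D0.

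The file headers name Cell Ranger 3.0.2 for Ctrl-1 and all D0 and D2 libraries compared, whereas Ctrl-2, Ctrl-3 and D2-3 carry 3.1.0. Ctrl-1 had the lowest value of the Ctrl libraries for 8 of 10 members, and the share of all genes for which it was lowest was not counted. With the version as a term, H2-K1 (1.14), H2-D1 (1.49), H2-Q7 (2.32), B2m (1.08), Tap1 (0.96) and Psmb8 (0.52) were called higher in D0, and H2-T23 and Tapbp had a log2 fold change of 0.72 and 0.44 that did not pass. Within the libraries of version 3.0.2, which leave Ctrl-1 alone as the control, H2-K1 (1.16), H2-D1 (1.50), H2-Q7 (2.34), B2m (1.10) and Tap1 (0.98) were called higher in D0, on the assumption that a lone control varies like the other groups. In D2 against the same control, H2-K1 (1.17), H2-D1 (1.37), H2-Q7 (2.13) and Tap1 (1.00) were called, and B2m (0.80, adjusted p = 0.0574) was not.

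Of 26 other genes of the pathway, 8 were called higher in D0 and 6 in D2, and none was called lower (median log2 fold change 0.21 and 0.17). Of all genes tested, 12.5% were called higher in D0 and 10.6% in D2, and 7.61% and 7.49% lower. Nlrc5, the transactivator of class I genes, rose by 1.43 on the log2 scale in D0 (SE 0.31, adjusted p = 0.0121) and by 1.65 in D2 (SE 0.34, adjusted p = 0.00922), from a low level of 0.947 to 1.48 CPM in Ctrl (18 to 39 UMIs per library) to 2.26 to 4.30 in D0 and 2.85 and 4.41 in D2. Further chains rose with the members: H2-Q6 by 1.57 in D0 and 1.34 in D2, H2-Q4 by 1.01 and 0.81, H2-T22 by 0.64 and 0.57, and H2-M3, which presents formylated peptides, by 0.52 in D0, with a value of 0.20 in D2 that did not pass (adjusted p = 0.471). H2-Q6 and H2-Q7 are near-identical, and their reads cannot be told apart with certainty.

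In the peptide supply, Psme1 and Psme2, the PA28 activator of the proteasome, rose by 0.69 and 0.57 on the log2 scale in D0 (adjusted p = 0.00102 and 0.00759) and by 0.65 and 0.46 in D2. Psmb7, a subunit of the standard proteasome, rose by 0.49 in D0 (adjusted p = 0.0161), with 0.18 in D2. Not called were the third immunoproteasome subunit Psmb10 (-0.02 in D0), the trimming enzyme Erap1 (-0.08), the chaperones Calr (0.19), Canx (0.02) and Pdia3 (0.28), the tapasin relative Tapbpl (-0.34, adjusted p = 0.0677), and the regulators Irf1 (0.25), Irf2 (-0.17) and Rfx5 (-0.14). The class I-like genes Mr1, Hfe, Fcgrt and Cd1d1 were not called in either comparison.

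**Figure D2:**
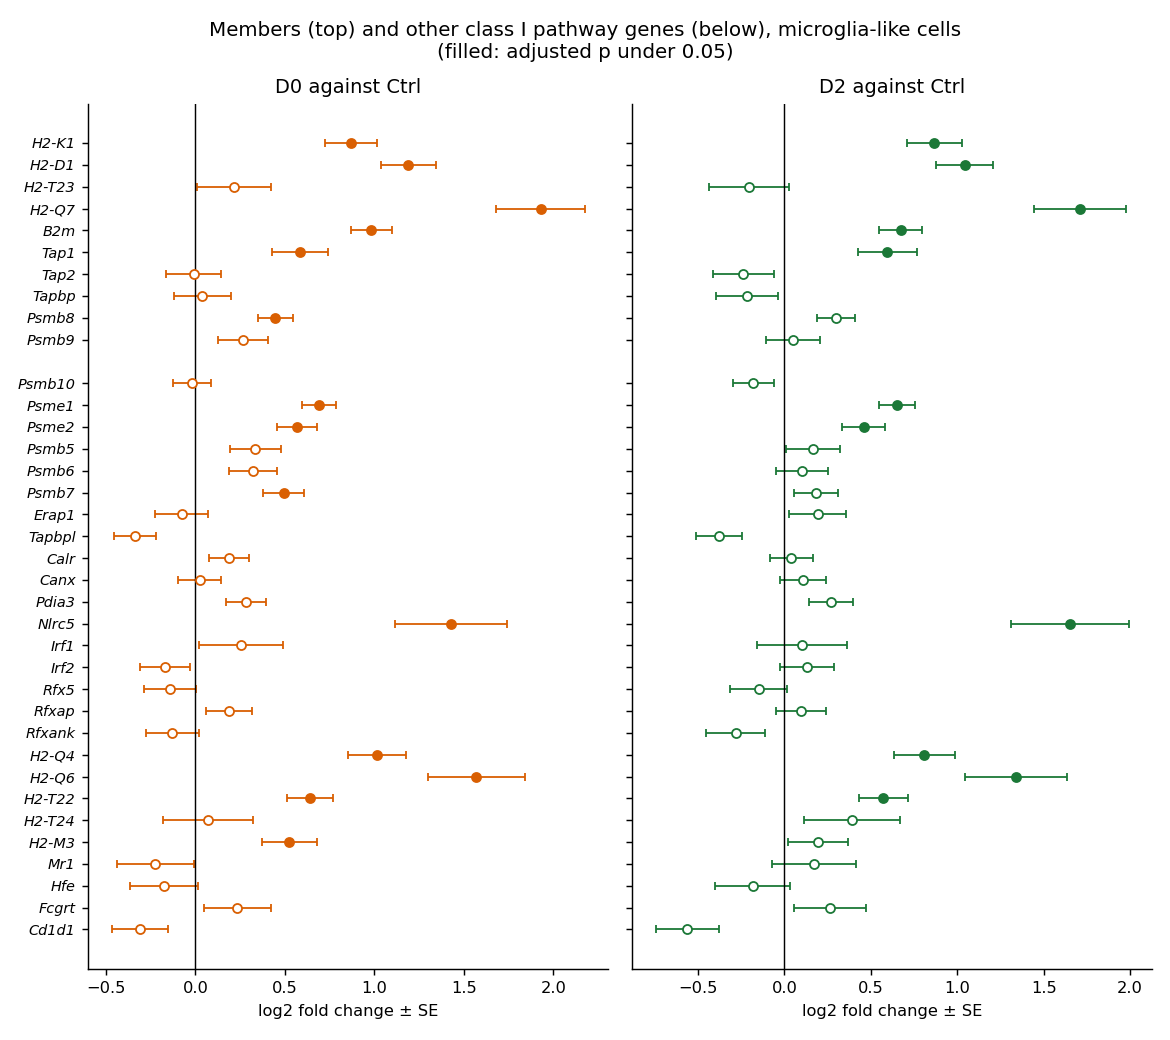
Log2 fold change with its SE in microglia-like cells for the 10 members (top) and 26 other pathway genes (below), D0 against Ctrl on the left and D2 against Ctrl on the right; filled points have an adjusted p under 0.05 in edgeR. The chains of the K, D and Q regions, B2m, Nlrc5, Psme1 and Psme2 lie to the right of 0 in both panels, and Tap2, Tapbp and Psmb10 lie near or left of it.

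For context, 15 of 19 interferon-stimulated genes were called higher in D0 and 17 of 19 in D2, with a median log2 fold change of 1.09 and 1.63, and none was called lower. Ifi27l2a rose by 4.55 in D0 and 5.05 in D2, and the transcription factor gene Irf7 also rose, by 1.84 and 1.70. Of the class II genes, 3 of the 6 that passed the filter on low counts were called higher in D0 (Cd74, H2-Ab1 and H2-DMa) and 2 in D2, while H2-Aa (0.21, adjusted p = 0.770) and H2-Eb1 (-0.31, adjusted p = 0.640) were not called in D0. The shares of all genes called higher were 12.5% in D0 and 10.6% in D2. These lists were chosen with results of these data known, so their counts are a description.

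Within microglia, the chains were also read cluster by cluster. In clusters 1 to 7, which held Ctrl, D0 and D2 cells, the chains summed to 988 to 1765 CPM over the Ctrl libraries, and within each cluster every D0 and D2 library compared lay above every Ctrl library. The cluster with the highest Ctrl level was 6, led by Tnf, Il1a and Il1b, with 1748 and 1765 CPM in Ctrl-2 and Ctrl-3 and 2461 to 2571 in D0. The D0 clusters led by mitotic genes, 10 (Ccnb2, Birc5) and 15 (Top2a, Mki67), read 1990 to 2265 and 1656 to 2212 CPM, within the range of the other D0 clusters, and had too few Ctrl cells for a comparison. Cluster s3, led by Axl, Ifi27l2a and Ifi204, read 2462 to 2565 CPM in D0 and 2607 and 2900 in D2.

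**Figure D3:**
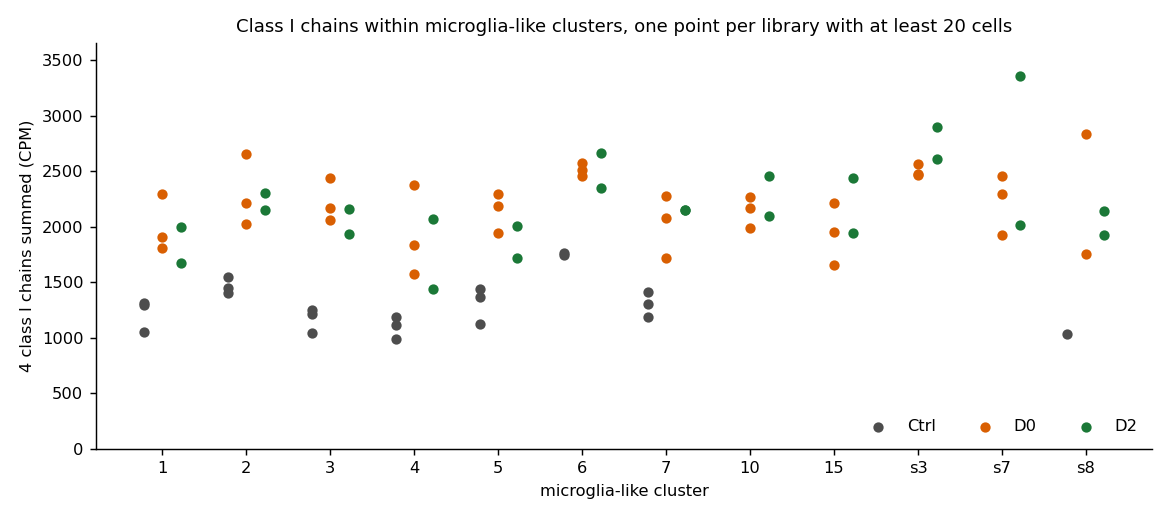
Sum of H2-K1, H2-D1, H2-T23 and H2-Q7 in UMIs per 1000000 within each microglia-like cluster, with 1 point per library that had at least 20 cells of it. In clusters 1 to 7 the D0 points lie above the Ctrl points, and in clusters 10, 15, s3 and s7 no Ctrl library had 20 cells.

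Tested within clusters, 4 members (H2-K1, H2-D1, H2-Q7 and B2m) were called higher in D0 in clusters 1, 3, 4, 5 and 7, 3 in cluster 2 (without H2-K1) and 2 in cluster 6 (H2-D1 and B2m), where 1 Ctrl library was missing. The share of all genes called higher in D0 was 2.21% in cluster 1, 2.28% in cluster 2, 2.49% in cluster 3, 2.61% in cluster 4, 4.04% in cluster 5, 5.1% in cluster 6 and 2.66% in cluster 7. H2-D1 was called in all 7, with a log2 fold change from 0.75 in cluster 6 to 1.42 in cluster 3. B2m was also called in all 7, from 0.69 to 1.09. Tap1 and Psmb8 were called in none of them in D0.

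Fewer calls were made within clusters in D2, with its 2 libraries. In clusters 1 to 7, 2, 1, 4, 2, 2, 1 and 4 members were called higher, where 1.83%, 1.78%, 2.1%, 1.69%, 2.75%, 6.08% and 4.63% of genes were. H2-D1 was called in each of the 7, with a log2 fold change from 0.65 in cluster 6 to 1.21 in cluster 3. H2-K1 was called in clusters 1, 3, 5 and 7, H2-Q7 in clusters 3, 4 and 7, and B2m in clusters 3 and 7. In cluster 6, Tap2 fell by 0.68 on the log2 scale (SE 0.17, adjusted p = 0.0217), where 6.43% of genes were called lower.

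Across cell types in Ctrl, microglia had the lowest level of the class I chains among the myeloid classes. The 4 chains summed to 1287 ± 174 CPM in microglia-like cells (SD, n = 3), 3230 ± 495 in border-associated macrophage-like cells (n = 3), 3822 ± 995 in endothelial-like cells (n = 3), 6676 and 7205 in monocyte-like cells of 2 libraries, and 3255 and 4268 in neutrophil-like cells of 2. The 1 Ctrl library with enough dendritic cell-like cells read 3228. No microglia-like value overlapped those classes in Ctrl. Endothelial and mural cells are not targets of the sort, so those that passed it may differ from the rest of their kind. Mural-like cells were lower, at 560 and 632 CPM.

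The Ctrl order by the mean of the chains was thus monocyte-like, endothelial-like, neutrophil-like, border-associated macrophage-like, dendritic cell-like, microglia-like and mural-like. Ranges of neighbours overlapped between endothelial-like and border-associated macrophage-like cells and the single dendritic cell-like value fell within the latter, so those places are not settled by the spread, while monocyte-like cells lay above them all. Other classes had enough cells in D0 only. Lymphoid-like cells, led by the natural killer genes Gzma and Nkg7, read 8706 and 8987 CPM in 2 D0 libraries, above every other class there. Ependymal-like and astroglial-like cells read 683 and 265 CPM in 1 D0 library each. In D2 the neutrophil-like libraries, at 1801 and 2130 CPM, lay below the microglia-like ones.

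For B2m, of 4 classes compared in Ctrl, microglia-like cells lay above endothelial-like cells, with monocyte-like cells at 3150 and 3340 CPM, border-associated macrophage-like cells at 1873 ± 163 (SD, n = 3), microglia-like cells at 1490 ± 43.1 (n = 3) and endothelial-like cells at 1213 ± 200 (n = 3), and these classes did not overlap. In D0 the microglia-like values, at 2396 to 2754 CPM, overlapped those of monocyte-like cells, at 1874 to 2564. H2-Q7 was uneven across classes, with 1065 and 945 CPM in the lymphoid-like cells of 2 D0 libraries and at most 225 in any compared library of another class. These levels are given without a test.

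**Figure D4:**
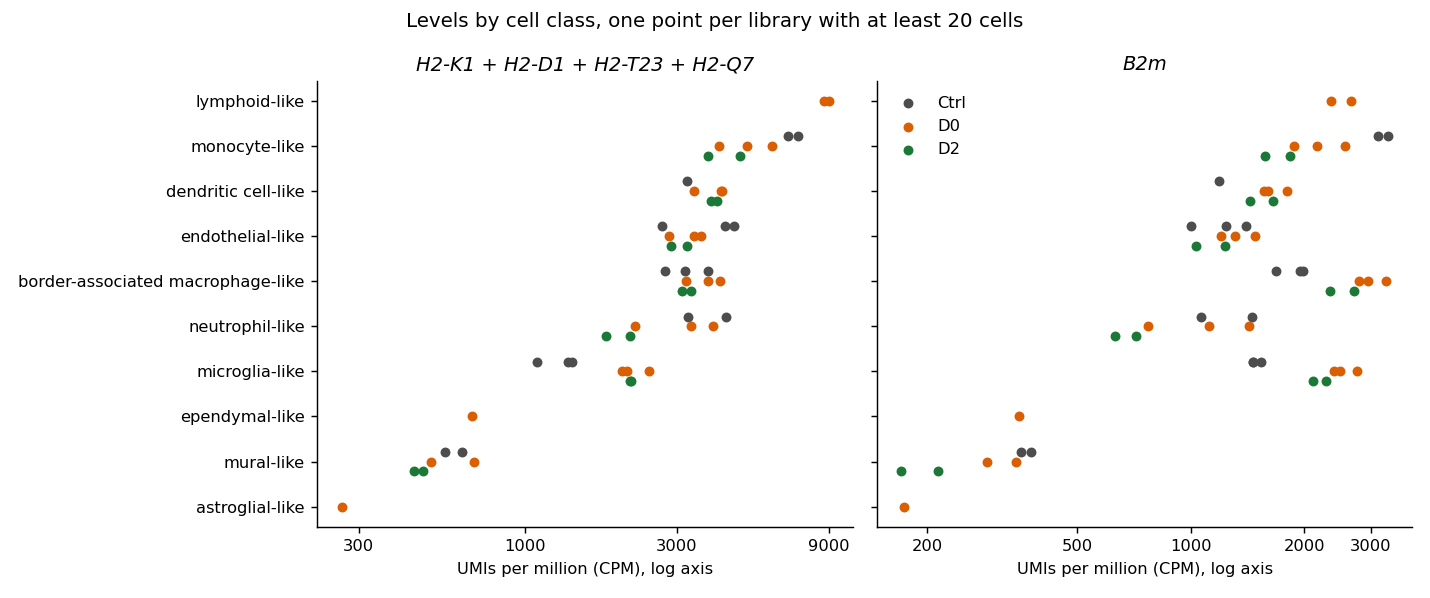
UMIs per 1000000 (log axis) of the 4 chains summed (left) and of B2m (right) in each cell class, with 1 point per library with at least 20 cells, coloured by group and without D2-3. Lymphoid-like and monocyte-like cells are highest for the chains, and in microglia-like cells the Ctrl points lie below all D0 and D2 points in both panels.

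The other members followed the chains across classes to different degrees. The correlation with the summed chains over the 10 class means, which pool the groups and rest on unequal groups per class, on the log2(CPM + 10) scale, was 0.93 for B2m, 0.96 for Tap1, 0.95 for Psmb8, 0.97 for Psmb9, 0.89 for Tapbp and 0.75 for Tap2. Among 7069 non-member genes with at least 50 CPM in some class, the most alike were Hpcal1 (0.96), Dap (0.96), Sp100 (0.95), Tpm3 (0.94) and Sp110 (0.94). The classes come from the same libraries, and these values describe likeness only.

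In none of the other classes tested was a chain called higher in D0 or D2. In endothelial-like cells none of the 10 members was called in D0 or D2 (0.0122% and 0.0608% of 8227 genes called), with 2 and 3 members at an unadjusted p under 0.05, and the log2 fold change of H2-D1 was -0.13 in D0 (SE 0.19). In mural-like cells none of the 6 members tested was called (0.0235% and 0.0939% of 4258 genes), with 0 and 3 at an unadjusted p under 0.05. In neutrophil-like cells none of 9 was called (0.0878% and 2.7% of 4557 genes), with 1 and 2 at an unadjusted p under 0.05. H2-Q7 did not pass the filter on low counts there and was not tested. Only edgeR was run within these classes, and each fit held 6 to 8 libraries with 20 or more cells.

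In border-associated macrophage-like cells 1 of 10 members was called in D0, where 3% of 7597 genes were called in either direction, and none in D2 (0.961%), where 1 had an unadjusted p under 0.05. The 1 was B2m, at 1944, 1988 and 1686 CPM in Ctrl and 2946, 3296 and 2792 in D0 (log2 fold change 0.81, SE 0.18, adjusted p = 0.0300), and the call was lost without any 1 of the Ctrl libraries, D0-2 or D0-3. The chains did not pass (H2-D1 0.36, adjusted p = 0.366). The label is weak in D0 and D2: the 9 markers of these macrophages, such as Mrc1 and Pf4, gave a sum of 2740 to 4910 CPM over the Ctrl libraries, 296 to 788 over D0 and 453 and 920 over D2, and the class was spread over sub-clusters s5, s6 and s10. Sub-cluster s5 held 60, 21 and 59 cells of the Ctrl libraries and 64, 40 and 18 of the D0 libraries, and s6, whose leading genes include class II genes, held 99, 37 and 50 and 36, 48 and 22.

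In monocyte-like cells the direction was the opposite, and 1 of 10 members was called lower in each comparison, where 0.873% of 6417 genes were called in either direction in D0 and 2.76% in D2. H2-Q7 fell by 1.58 on the log2 scale in D0 (SE 0.30, adjusted p = 0.0326), a call that was lost without D0-2 or either D2 library, and B2m fell by 0.97 in D2 (SE 0.19, adjusted p = 0.0230). The chains summed to 6676 and 7205 CPM in Ctrl-2 and Ctrl-3, 4971, 4067 and 5987 in D0 and 3742 and 4724 in D2. These 2 Ctrl libraries are the ones of Cell Ranger 3.1.0, so group and version cannot be told apart here or in neutrophil-like cells. In D2-3, also of 3.1.0, the chains read 6270 CPM in monocyte-like cells, above every D0 and D2 library compared. The summed monocyte markers of this class also differed by group, at 5297 and 6419 CPM in Ctrl, 7607 to 8888 in D0 and 8384 and 9512 in D2. Whether the make-up of the class differed between the groups was not tested.

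**Figure D5:**
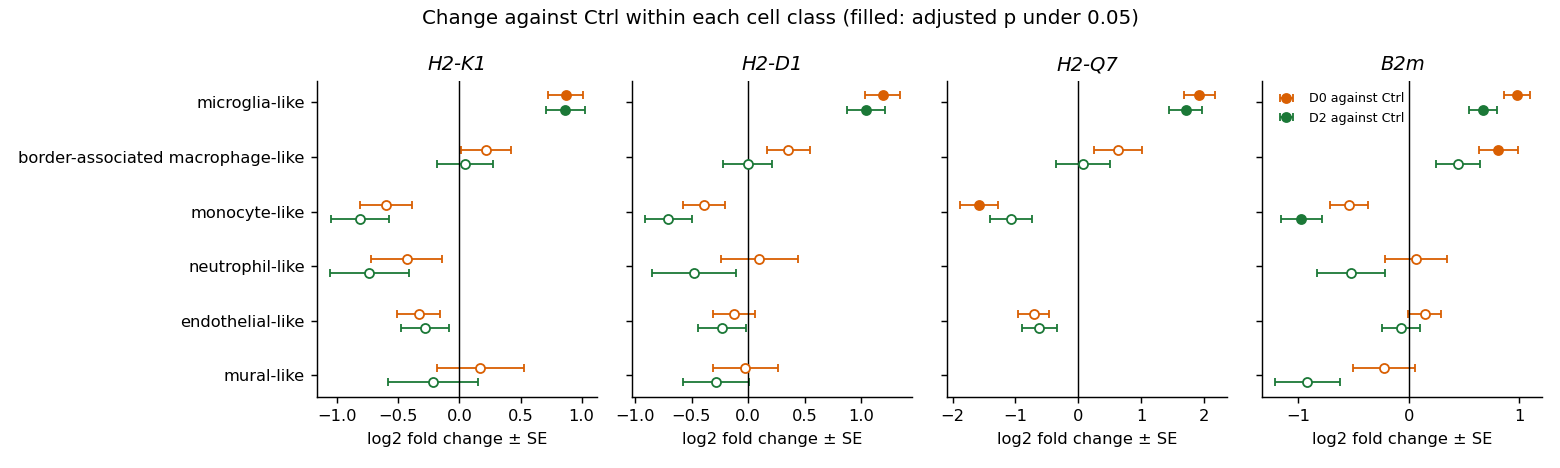
Log2 fold change with its SE against Ctrl for H2-K1, H2-D1, H2-Q7 and B2m within 6 cell classes, for D0 and D2; filled points have an adjusted p under 0.05 in edgeR. The microglia-like points lie to the right of 0 in every panel, and the monocyte-like points lie to the left.

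Whether the D0 change differed between a class and microglia was tested in 1 model with the library as a block, and differences are given as the class minus microglia on the log2 scale. In monocyte-like cells (2.84% of genes called) 4 members differed: H2-K1 by a value of -1.33 (adjusted p = 6.77e-06), H2-D1 of -1.42 (6.64e-07), H2-Q7 of -3.32 (2.59e-20) and B2m of -1.45 (4.21e-07). The Cell Ranger version, confounded with the group there, touches these values too. The p-values of this monocyte fit were computed as if the spread between libraries were known exactly. With 2 Ctrl libraries, their small size is not to be relied on. The same 4 members differed in endothelial-like cells (3.41% called), where all 3 Ctrl libraries entered: H2-K1 had -1.17 (SE 0.18, adjusted p = 3.00e-05), H2-D1 -1.28 (SE 0.18, 5.93e-06), H2-Q7 -2.56 (SE 0.23, 1.01e-10) and B2m -0.82 (SE 0.19, 0.00504). In both classes the D0 change was thus smaller than in microglia or of the opposite sign.

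In border-associated macrophage-like cells (2.32% called) H2-D1 differed by -0.81 (SE 0.17, adjusted p = 0.00571) and H2-Q7 by -1.37 (SE 0.32, adjusted p = 0.0146), and B2m had a difference of -0.14 that did not pass (SE 0.15). In neutrophil-like cells (0.843% called) H2-Q7 differed by -2.63 (SE 0.62, adjusted p = 0.00492). H2-Q7 was too low to be tested within that class. It entered this fit because the filter on low counts took the class and microglia-like sums together, so the difference leans on the microglia-like change. In mural-like cells (1% called) no member passed, with differences of -1.08 for H2-D1 (SE 0.35, adjusted p = 0.128) and -1.06 for B2m (SE 0.36, adjusted p = 0.180). H2-T23, Tap1, Tap2, Tapbp, Psmb8 and Psmb9 passed in none of the 5 classes. Dendritic cell-like cells entered only with a minimum of 10 cells, through 22 and 14 cells of Ctrl-1 and Ctrl-3. With that minimum (2.43% called) H2-D1 differed by -1.05 (SE 0.20, adjusted p = 0.000161) and H2-Q7 by -1.88 (SE 0.32, adjusted p = 1.47e-05), while within the class itself no member was called in D0 or D2 and 1 and 0 had an unadjusted p under 0.05. In mural-like cells the same minimum (1.22% called) gave a B2m difference of -1.20 (SE 0.34, adjusted p = 0.0400). As for monocyte-like cells, the p-values of the neutrophil-like and mural-like fits were computed as if the spread between libraries were known exactly. Lymphoid-like cells had too few Ctrl cells for this test.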

How the data were processed

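Raw UMI counts per gene and cell were deposited by the authors as 10x matrices. Per the labels, they were made with Cell Ranger on mm10, and the file headers name version 3.0.2 or 3.1.0 by library. Of 36391 barcodes, the 30463 that held 500 to 20000 UMIs from 200 genes or more, of which mitochondrial genes gave no more than 10%, were kept. They were clustered in scanpy 1.11.5 (3000 variable genes, 10 components, 20 neighbours, Leiden resolution 0.6) with 36 class I genes left out, and clusters were named "-like" from markers. Scrublet marked 0.194% of the cells, too few to have worked, so no doublets were removed. UMIs were summed per library and class (at least 20 cells) and tested with edgeR 4.0.16 (TMM, filterByExpr, quasi-likelihood test, Benjamini-Hochberg adjustment over all genes, called under 0.05), with Ctrl, D0 and D2 in 1 fit. DESeq2 1.42.0, other scalings and filters and left-out libraries were alternatives. On simulated data made from the 8 libraries, for D0 against Ctrl, 90% of genes changed 1 log2 unit and 100% of those changed 2 were called, and 15 of 205 calls were false. The changed genes were drawn from those with a mean above 20 CPM. Lower genes, such as Nlrc5, and changes under 1 log2 unit, such as those of Tap1 and Psmb8, were not covered. Levels are UMIs per 1000000 of the summed UMIs (CPM). All members, every called gene of the 26 other pathway genes and the 5 genes most alike across classes were named, and further uncalled pathway genes and list genes were named after their values were seen. Members and lists were chosen with earlier results of these data known. D2-3 was left out as in the study. P-values measure the spread between libraries, each of separate mice per the labels. In the test of a difference from microglia, those for monocyte-like, neutrophil-like and mural-like cells took that spread as known exactly. They understate the doubt from few libraries. Annotation was GENCODE M21, and promoters came from RefSeq (GRCm38.p6).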

Additional observations from a re-analysis of the deposited data

Results flagged for a closer look

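The D0 change differed between microglia-like cells and another class for 11 combinations of member and class by the test of the difference itself. The difference, as the class minus microglia on the log2 scale, was -0.81 for H2-D1 and -1.37 for H2-Q7 in border-associated macrophage-like cells. In monocyte-like cells it was -1.33 for H2-K1, -1.42 for H2-D1, -3.32 for H2-Q7 and -1.45 for B2m, with the Cell Ranger version confounded with the group. In neutrophil-like cells it was -2.63 for H2-Q7, with the same confounding, and H2-Q7 was too low there to be tested within the class. In endothelial-like cells it was -1.17 for H2-K1, -1.28 for H2-D1, -2.56 for H2-Q7 and -0.82 for B2m.

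In the left-out library D2-3, Psmb8 read 324 CPM in microglia-like cells, above each Ctrl, D0 and D2 library compared (240 to 293 CPM), while 6 of the 10 members were below every Ctrl library there. Psmb8 was not alone in this: Psmb5 read 333 CPM (at most 163 in the libraries compared), Psmb6 360 (at most 176) and Psmb7 212 (at most 93.0). Psmb9, at 88.2 CPM, and Psmb10, at 117, were not above the Ctrl libraries. The share of all genes outside the Ctrl range in D2-3 was not counted.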

How the results depend on the processing

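H2-Q7 was called higher in every alternative counted for D0 (24) and D2 (25), and B2m in every one counted for D0. The fit with D2-3 and without mitotic cells was counted for D2 only. H2-K1 and H2-D1 lost their calls only with D2-3 included (1 of 24 in D0, and 2 of 25 in D2, with and without mitotic cells), B2m lost its D2 call in 4 of 25, and Psmb8 lost its D0 call in 4 of 24. Scaling by total UMIs alone, version 3.0.2 alone and D2-3 without its mitotic cells were chosen after seeing the data. With D2-3 included, 2 members were called higher in D0 and 1 in D2, with 0 and 2 of the other pathway genes, and 427 and 912 of all 12210 genes. With D2-3 included and mitotic cells left out, 1 member and 2 pathway genes were called in D2, where 500 of 11965 genes were called higher. Leaving out 1 library gave 3 to 5 members in D2, the lowest without D2-2, and 1 to 6 pathway genes, the lowest without D2-1.

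For the other pathway genes, the version term gave 5 higher in D0, where 1048 of 12414 genes were called higher. Leaving out mitotic cells gave 3 in D2, where 730 of 12216 genes were. Only version 3.0.2, with Ctrl-1 as its lone control, gave fewer than the main fit in D0 and in D2. Called lower were 2 in D0 and 2 in D2 with scaling by total UMIs, 1 in D0 with all myeloid cells, and, leaving out 1 library, 0 to 1 in D0 and 0 to 2 in D2, the highest without Ctrl-1.

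Members that were not called changed sign. Tap2 in D0 was 0.019 by DESeq2, 0.0085 with only the 2 groups, 0.35 with the version term, 0.0050 with D2-3, 0.058 thinned, 0.023 without mitotic cells, 0.37 within version 3.0.2 and -0.15 to 0.086 leaving out 1 library. Tapbp in D0 was -0.17 with scaling by total UMIs, -0.036 with no upper UMI limit and -0.11 to 0.15 leaving out 1 library. In D2, the version term gave 0.31 for H2-T23, 0.12 for Tap2 and 0.18 for Tapbp, version 3.0.2 alone gave 0.33, 0.15 and 0.21, and thinning gave 0.035 for Tap2. Psmb9 in D2 was -0.061 with scaling by total UMIs, -0.034 thinned, -0.066 without mitotic cells and -0.070 to 0.19 leaving out 1 library. For D2 minus D0, H2-K1 was 0.013 with upper-quartile scaling, 0.10 with total UMIs, 0.012 with only the 2 groups, 0.040 thinned, 0.017 with all myeloid cells, 0.0021 without interferon-positive cells and -0.075 to 0.11 leaving out 1 library. H2-Q7 was -0.52 to 0.036 and Tap1 -0.058 to 0.092 leaving out 1 library, Tap1 was -0.0033 with no filter, -0.086 with D2-3 and -0.0086 with all myeloid cells, and Psmb8 was 0.085 with D2-3. The cause was not tested.

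Within classes, leaving out 1 library gave 0 to 2 members in border-associated macrophage-like cells in D0, 0 to 2 in monocyte-like cells in D0 and 1 to 2 in D2, where no filter gave 6. With at least 10 cells, 1 member differed in mural-like cells, and 2 did in dendritic cell-like cells, which had no value at 20. The chains in lymphoid-like cells were 8354 CPM with no upper UMI limit.

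Same-numbered libraries did not deviate together in every pair (r from -0.139 to 0.389 over genes), so the numbers were not taken as pairs. With the replicate block, 6 members in D0 and 5 in D2 were called, 1741 genes were higher and 1148 lower in D0, 1420 and 841 in D2, and H2-K1 was 0.0078 for D2 minus D0.

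The limits are 2 D2 libraries, few Ctrl monocyte-like and neutrophil-like cells, read assignment between chain genes, and RNA levels that do not measure surface protein.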
